A study of Sus scrofa with 12 samples.

Results

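The genes described here encode proteins of the cytosolic ribosome. They are the genes whose pig Ensembl gene name begins with RPL or RPS and a digit, or is RPLP0, RPLP1, RPLP2 or RPSA. Kinase genes named RPS6K and names ending in L1 were left out. The rule found 49 of the 25880 genes listed, 24 of the large subunit (RPL and RPLP) and 25 of the small subunit (RPS and RPSA). Of the ribosomal protein genes listed by name, paralogs apart, only 21 of 46 of the large subunit and 24 of 31 of the small subunit were found. The others, among them RPL32, RPS6 and RPS19, were not found by name in the gene name table and were not analysed here. The shares, subunit values and correlations below therefore cover only part of the family.

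The counts came from the Semimembranosus (SM) muscle, a ham muscle, of 12 Italian Large White pigs chosen for extreme intramuscular fat content (IMF). Pigs 1 to 6 formed the high IMF group and were slaughtered at 234 to 244 days of age. Pigs 7 to 12 formed the low IMF group and were slaughtered at 229 to 249 days. All weighed 150 to 160 kg, and the labels give 3 females and 3 castrated males in each group. The labels name no genotype or treatment that separates the groups, and every value is from 1 library of 1 animal.

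The counts per pig summed to 131048805 to 154840282 in the high IMF group and to 133915596 to 178013997 in the low IMF group, and 6 muscle fibre genes together reached 42456 to 73028 CPM in every pig (CPM, counts scaled to the library size). In 6 of the 12 pigs, 2 of the high IMF group (pigs 3 and 5) and 4 of the low IMF group (pigs 7 to 10), counts on the Y chromosome genes EIF1AY and KDM5D went against the labelled sex. Results are therefore also given without these 6 pigs, which leaves 4 high IMF and 2 low IMF pigs. Agreement with the labelled sex does not establish the labels of the pigs that are left. Whether the IMF labels hold for each library was not tested, and every group comparison below is of the groups as labelled. Pig 7 stood apart in its scaling factor, 0.810 against 0.918 to 1.12 in the other pigs (TMM, trimmed mean of M values, which multiplies the library size). In the study's mapping summary the same library had the smallest portion of uniquely mapped reads and the largest portions of multi-mapped and unmapped reads. That summary also lists fewer input reads than counts for every pig, so a count is not an independent fragment, and intervals and floors of counts are narrower than for independent reads.

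The ribosome is built of a large and a small subunit, each an assembly of ribosomal RNA and proteins that are mostly present in a single copy per particle. Cells therefore make these proteins in matched amounts. Their mRNAs commonly begin with a C followed by a run of pyrimidines, the terminal oligopyrimidine (TOP) tract, through which mTORC1 and the RNA-binding protein LARP1 control their translation. Skeletal muscle is unusual in expressing RPL3L, a muscle and heart paralog of the large subunit protein RPL3.

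The starts of 8 members are shown because these genes lie at the ends of the coordination and level rankings described further on. Each stretch holds 15 bases before the annotated RefSeq start and 15 bases from it on, on the strand of the gene and from 5′ to 3′, in Sscrofa11.1. Capitals mark a C followed by at least 4 C or T bases where such a run began within 5 bases of the start.
RPL10 (chrX:124927234-124927263, plus strand): caggcgtgggagcgCCTCTTTTCCTTCggc
RPL23 (chr12:23279950-23279979, plus strand): ctttgttcttaCTTCCTTTTCgtccttgtc
RPLP2 (chr2:507876-507905, plus strand): cccccgcgccggcgtCTTCCTTTCTgtccc
RPL29 (chr13:34121828-34121857, minus strand): atttcccgtgctgcaccgcggccttccttt
RPL3 (chr5:8922682-8922711, plus strand): gccagtctgggatttatatatcgcacgcct
RPL36A (chrX:83018290-83018319, plus strand): gagggcgctgctcacagagccttagactct
RPL36AL (chr1:179477806-179477835, minus strand): aggctagagcagagcgagacccggaacgtg
RPS27L (chr1:108881315-108881344, plus strand): ggctccctacccgccatacaccagttgagc
A run of this kind began within 5 bases of the start in 15 of 49 members (30.6%), against 18.8% of 19556 protein-coding genes on chromosomes. The result depends on the annotated start used. In the stretch of RPL29 a pyrimidine run lies just inside the transcript, beyond the 5 bases searched. With any annotated start of a gene allowed, such a run was found in 21 of 49 members (42.9%), RPL29 among them. The share was 30.0% of all genes and 34.4% of the protein-coding genes tested here. A longer run, C followed by 7 C or T bases anywhere from 40 bases before to 20 bases after the start, was found in 28 of 49 members (57.1%) and in 21.9% of all genes; this wider search was added after the first had been seen. RPL10, RPL23 and RPLP2 carried the run at the start. Of the members least like the rest in level across pigs, RPL23 and RPLP2 carried it, and RPL3, RPS27L and RPL36AL did not. Of those most like the rest, RPS3A, whose start is not shown, carried it, and RPL29 and RPS3 did not at the start used. A relation of the run to the level across pigs was not tested.

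In the promoter stretch from 250 bases before the start to 50 bases into the transcript, the letters CCGGAAG, the core of many ETS factor motifs, occurred on either strand in 32.7% of members and 11.0% of all genes. TATAAA was present in 20.4% and 10.9%, GGGCGG (the SP1 core) in 65.3% and 50.7%, and AAGATGGC (the YY1 core) in 4.08% and 2.49%. Among the 11031 protein-coding genes that were tested here, the shares were 14.5% for CCGGAAG, 7.90% for TATAAA, 62.3% for GGGCGG and 3.17% for AAGATGGC, so that GGGCGG was nearly as common there as in the members. These shares are descriptions of letters and not of bound sites. The 120 bases before the start of RPL3 are shown because this gene followed the other members least, with any of the 4 motifs in capitals.
RPL3 (chr5:8922577-8922696, plus strand): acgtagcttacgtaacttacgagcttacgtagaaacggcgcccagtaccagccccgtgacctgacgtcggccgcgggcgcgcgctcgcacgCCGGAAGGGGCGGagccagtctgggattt
RPL3 held CCGGAAG and GGGCGG end to end. It also counts among the members with TATAAA. That motif, read on this strand as TTTATA, spans the start and so runs past the end of the 120 bases shown. The members were spread over 15 chromosomes, with 9 on chromosome 1 and 3 (RPL10, RPL36A and RPS4X) on chromosome X. RPS2 and RPL3L were neighbours on chromosome 3 with 1796 bases between them, and RPS29 and RPL36AL on chromosome 1 with 19790 bases between them. The members' genes were short, with a median coding length of 471 bases against 1263 for all genes.

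Of the 49 members, 48 passed the filter on low counts. RPL10L (ENSSSCG00000005001), the retrogene copy of RPL10 known from testis, did not, and had 1 count in pig 1, 1 in pig 8 and 0 in the other pigs. Every tested member was deeply counted, the lowest value being the 2031 counts of RPL36AL in pig 7, so that the spread between pigs and not counting error sets the precision below. Counts of ribosomal protein genes carry a further limit, since pig genomes hold many near-identical processed copies of them and how multi-mapped reads were counted is not given in the sources used here.

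Per kilobase of coding sequence, the mean level over the pigs ranged 65.5-fold among members, from 47.4 to 3104 CPM per coding kilobase with a median of 452. RPLP1, a protein of the acidic stalk that recruits elongation factors, was the most abundant at 3104 CPM per coding kilobase. RPL10, which lines the path of tRNAs, followed at 987, RPS2 at 831 and RPS29 at 717. The lowest were RPL3 at 47.4, RPL36AL at 63.1 and RPL36A at 114. RPL3, a protein near the peptidyl transferase centre, was thus the lowest of the 48 tested members per coding kilobase, while its paralog RPL3L stood at 133. Genes whose proteins are mostly needed in equal numbers were therefore counted at widely unequal levels per coding kilobase. Divided by transcript length in place of coding length, RPLP1 and RPL10 were again the highest, and RPL36AL, RPL3 and RPS27L the lowest, in that order. RPS2 and RPS29, with annotated transcripts of 5903 and 1695 bases, did not stay among the highest. They had 124 and 110 CPM per transcript kilobase, against 2021 for RPLP1 and 42.2 for RPL36AL.

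The members together took 1.25% ± 0.071 (SD, n = 6) of all counts in high IMF pigs, beside 1.23% ± 0.121 (SD, n = 6) in low IMF pigs. In the high IMF group the share was 1.18% in pig 1, 1.21% in pig 2, 1.31% in pig 3, 1.36% in pig 4, 1.19% in pig 5 and 1.24% in pig 6. In the low IMF group it was 1.27% in pig 7, 1.36% in pig 8, 1.18% in pig 9, 1.16% in pig 10, 1.36% in pig 11 and 1.06% in pig 12. The groups overlapped almost wholly, their means differed by less than the SD of either, and pig 12 was the lowest of all. Counting error was negligible here: the widest 95% Wilson interval of a pig's share was 0.00386 percentage points wide and covers counting error only. Without the 6 pigs whose Y counts opposed their label, the low IMF mean lay 0.0379 percentage points below the high IMF mean.

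**Figure D1:**
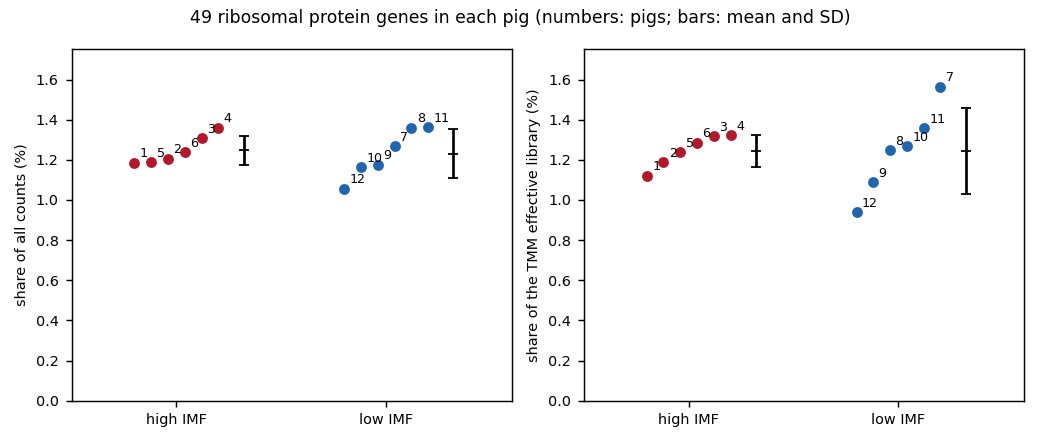
Share of all counts (left) and of the TMM-scaled library (right) taken by the 49 ribosomal protein genes, in percent, for each pig (points, numbered) with the group mean and SD (bars, n = 6). Pig 12 is lowest on both scales at 1.06% and 0.940%, and pig 7 is highest only on the right at 1.56%.

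The scale decided where pig 7 stood. Of the TMM-scaled library, the members took 1.56% in pig 7 and 0.940% in pig 12, and 1.09% to 1.36% in the other pigs. Pig 7 had the lowest TMM factor and, at 73028 CPM, the highest summed level of the 6 muscle fibre genes, which lay between 42456 and 57334 CPM in the other pigs. Counts on genes of the mitochondrial genome took 3.19% in pig 7, against 2.52% to 5.24% in all pigs. The part of these features in the level of the ribosomal protein genes was not tested. In bulk muscle, a smaller share of ribosome-rich cells and less ribosomal protein mRNA per cell cannot be told apart.

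Across the 12 pigs the ribosomal protein genes went up and down together. The median Pearson's r over the 1128 pairs of tested members, on log2 CPM, was 0.77 (25th to 75th percentile 0.60 to 0.86), whereas over all pairs of the 14262 genes tested it was -0.00145. An r over 0.5 was found for 82.2% of member pairs and 7.77% of all pairs, and 14 member pairs had a negative r. These values describe genes measured in the same 12 libraries, which share depth and scaling, and genes are not independent replicates. Small subunit genes were most alike among themselves (median r 0.81), large subunit genes somewhat less (0.71), and pairs across the subunits lay between (0.76). With the group means removed the median was 0.79.

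**Figure D2:**
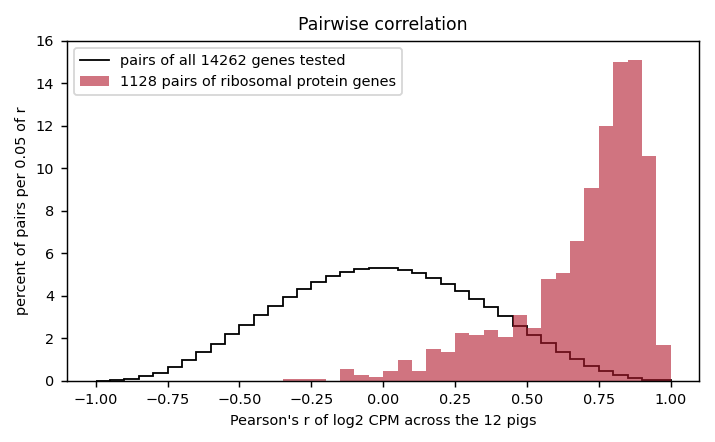
Distribution of Pearson's r across the 12 pigs for the 1128 pairs of ribosomal protein genes (filled) and for all pairs of the 14262 genes tested (line), in percent of pairs per 0.05 of r. The filled distribution has its median at 0.77 and the line is centred at -0.00145.

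This coordination depended on the scaling and on pig 12. With library totals in place of TMM, the median r was 0.55 for the members and 0.14 for all genes, and 114 pairs were negative. Without pig 12 the median was 0.70, and without pigs 7 and 12, an alternative added after the values were seen, it was 0.69. Within the 6 high IMF pigs it was 0.62 and within the 6 low IMF pigs 0.88, a difference that was not tested. Without the 6 pigs whose Y counts opposed their label, also an added alternative, it was 0.84. All of these lay above the medians of all genes under the same settings, which ranged from -0.00165 to 0.14.

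On the TMM scale, a single axis held most of the variation. The first principal component carried 72.9% of the members' variance across pigs, against 16.5% for all genes tested, and the second carried 13.1%. The mean deviation of the members from their own means, in log2 CPM, was 0.31 in pig 7 and 0.14 in pig 11, and -0.36 in pig 12, -0.21 in pig 9 and -0.16 in pig 1. In pigs 9 and 12, 0 of 48 members lay above their own mean over the pigs, and in pig 11, 45 did. High and low pigs thus occurred in both groups, with the extremes in the low IMF group. These 2 extremes were also those of the TMM factor that scales the values, lowest in pig 7 (0.810) and highest in pig 12 (1.12). The factor was 1.08 in pig 9, 1.06 in pig 1 and 1.00 in pig 11. Pig 8, with a factor of 1.09, had a mean deviation of 0.004. The part of the scaling in this axis was not tested. Pig 7 was also the oldest pig, at 249 days, and pig 12 the youngest, at 229 days. Pig 9 was 232 days old, and pigs 1 and 11, which deviated in opposite directions, were both 243 days old. The part of age was not tested. The balance of the subunits moved far less: the mean deviation of the small subunit genes minus that of the large subunit genes lay between -0.069 in pig 6 and 0.052 in pig 10. The members also had a lower median SD of log2 CPM, 0.213 against 0.331 over all genes tested. Every tested member was deeply counted, and the other genes were not matched to them in level. The lower SD is therefore not shown to be particular to the family.

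**Figure D3:**
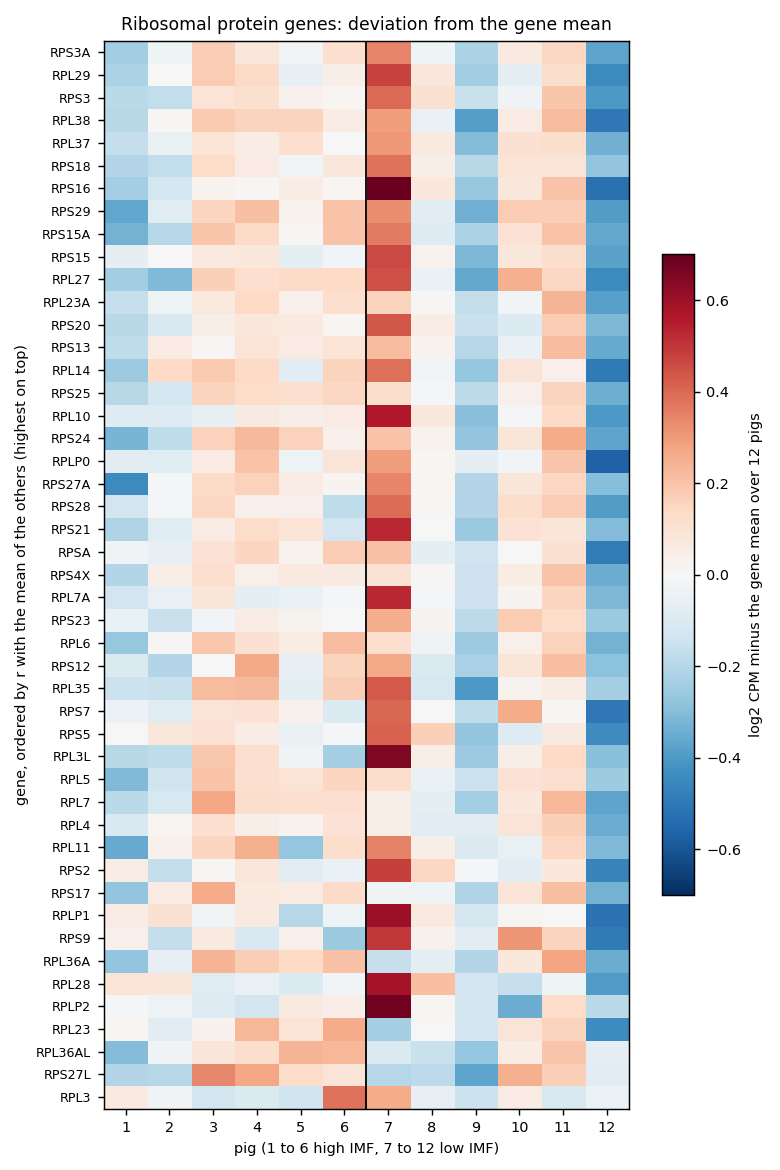
Deviation of log2 CPM from the gene's mean over the 12 pigs (colour, log2 units) for 47 of the 48 tested ribosomal protein genes (rows, ordered by r with the mean of the others) in pigs 1 to 12 (columns, high IMF left of the line). Pig 12 is below 0 in every row and pig 7 is above 0 in most, with RPL23, RPL36AL and RPS27L near the bottom among the exceptions in pig 7.

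The genes closest to the common pattern were RPS3A, RPL29 and RPS3, with an r of 0.98, 0.96 and 0.95 with the mean of the other members. RPS3A (ENSSSCG00000009019), a small subunit protein that contacts initiation factors, had 301.4 CPM as its lowest value, a median of 365 and a highest value of 402 CPM in the high IMF group. In the low IMF group it ranged from 276 in pig 12 to 452 in pig 7, with a median of 361. Both groups were centred alike and the low IMF pigs held both extremes. The highest r of a pair was 0.97, between RPL10 and RPS16. Over the 48 members, r with the mean of the others had a median of 0.89, and it was over 0.8 in 37.

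RPL3, RPS27L, RPL36AL, RPL23 and RPLP2 stood furthest from the others, with an r of 0.30, 0.41, 0.46, 0.47 and 0.58. RPL3 (ENSSSCG00000040494) had 51.8, 54.6 and 74.1 CPM as lowest, median and highest values in the high IMF group and 51.4, 55.1 and 68.2 in the low IMF group. Pig 6 was highest, followed by pig 7, and the other pigs lay between 51.4 and 59.6. In the pigs in which the rest of the ribosomal protein genes were lowest, RPL3 did not share 1 direction, with 55.4 CPM in pig 12, 51.4 in pig 9 and 59.6 in pig 1.

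RPL3L (ENSSSCG00000032657) followed the common pattern more closely than RPL3, at an r of 0.84. Its CPM was 142, 155 and 189 (lowest, median, highest) in the high IMF group and 136, 171 and 261 in the low IMF group. It was lowest in pig 12 and highest in pig 7, as was the mean of the members. The CPM of RPL3L exceeded that of RPL3 in every pig, 1.91-fold in pig 6 to 3.83-fold in pig 7. The ratio was 2.86 ± 0.65 (SD, n = 6) for high IMF pigs and 3.08 ± 0.51 (SD, n = 6) for low IMF pigs, a difference smaller than either SD (exact permutation test over 924 arrangements, two-sided, p = 0.489, 0.771 after adjustment over the 3 paralog ratios). These ratio tests were added after the values had been seen. Across pigs, RPL3 and RPL3L had a Pearson's r of 0.16 (permutation p = 0.605, adjusted 0.605 over 3 pairs) and a Spearman's rho of -0.04 (permutation p = 0.905). Without pigs 6 and 7, the farthest from the median of RPL3, r was -0.26.

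The other paralog pairs had a positive r. RPL36A, on chromosome X, and its autosomal copy RPL36AL, on chromosome 1, had an r of 0.84 (permutation p = 0.001, adjusted 0.003) and a rho of 0.82 (permutation p = 0.00174, adjusted 0.00522). Without pigs 12 and 1, r was 0.89. RPL36AL stood at 0.413 ± 0.025 (SD, n = 6) of the CPM of RPL36A for high IMF pigs and 0.421 ± 0.045 (SD, n = 6) for low IMF pigs (exact permutation p = 0.771). Over the pigs the ratio ran from 0.374 in pig 3 to 0.506 in pig 12. RPL7 and RPL7L1, a paralog outside the rule, had an r of 0.68 (permutation p = 0.0165, adjusted 0.0247) and a rho of 0.78 (permutation p = 0.00441, adjusted 0.00661), and an r of 0.66 without pigs 12 and 9. These p-values are against no correlation at all, whereas the median r over all pairs of tested members was 0.77. The r of RPL36A with RPL36AL lay above that median and the r of RPL7 with RPL7L1 below it. The p-values therefore do not set paralogs apart from other pairs of the family. Reads shared between near-identical copies could raise such an r, and this was not tested.

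RPS27L (ENSSSCG00000023158), a paralog of RPS27 known as a p53 target, had 47.9, 59.6 and 69.6 CPM in the high and 42.8, 50.4 and 65.6 CPM in the low IMF group. It was high in pigs 3, 4 and 10 and low in pigs 1, 2, 7, 8 and 9. With RPL28 it formed the most opposed pair of the family, at an r of -0.35, and its r with RPLP2 was -0.29. RPL23, a large subunit protein also known to bind MDM2, had 182, 200.5 and 230.1 CPM in the high and 142, 184 and 214 in the low IMF group. In pig 7, where most members were high, RPL23 was at 164 CPM and below its own mean.

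The departures from the common pattern ran along the base composition of the genes. The GC content of the coding sequence ranged from 42.4% in RPS27L to 62.4% in RPL28, and the loadings of the 48 members on the second component had an r of 0.79 with it. In pig 7, the deviation of a member rose with GC at an r of 0.68: the 12 members lowest in GC had a median deviation of 0.12 and the 12 highest one of 0.51. RPL23, RPS27L, RPL36A and RPL36AL lay below 0 there, and RPS16, RPLP2, RPL3L and RPL28 were among the highest. The r was 0.55 in pigs 1 and 8 and between -0.33 and -0.51 in pigs 3, 4, 5, 6, 10 and 11. It was 0.15, 0.18 and -0.22 in pigs 2, 9 and 12. Over 11031 genes with a coding sequence, the same r was 0.11 in pig 7 and lay between -0.32 and 0.25 in all pigs. These are descriptions over genes of the same libraries, chosen after the values were seen. Pig 7 is also the library that mapped least well, and the part of mapping in this pattern was not tested. The study gives RNA integrity only as a range over all samples, and its part was not tested.

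**Figure D4:**
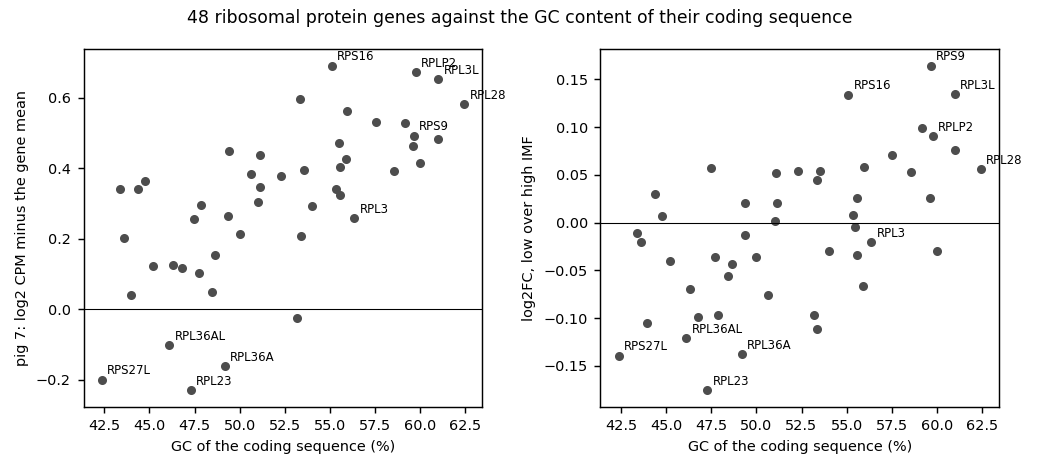
Deviation of log2 CPM in pig 7 from the gene's mean (left) and log2FC, low over high IMF (right), against the GC content of the coding sequence in percent, for 48 ribosomal protein genes (points, 10 of them named). The r is 0.68 on the left and 0.60 on the right, and the right panel includes pig 7 in the low IMF group.

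Between low and high IMF pigs, 0 of 48 ribosomal protein genes reached the adjusted threshold of 0.05 by the quasi-likelihood test of edgeR, and 0 of all 14262 genes did (0%). At an unadjusted p of 0.05, 0 of 48 members passed, whereas 10.4% of all genes did (5.38% higher in the low and 5.04% in the high IMF group). DESeq2's Wald test, run on every gene with at least 1 count, called 0 members as well, with 0.723% of all genes called, and at an unadjusted p it called 0 members and 9.07% of all genes. The low IMF group was higher for 23 members and the high IMF group for 25, that is 47.9% above 0 against 48.4% of all genes, and the median log2FC was -0.01 for the members and -0.01 for all genes. The values of the groups overlapped for every member, while 0.659% of all genes had groups that did not overlap.

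With all 12 pigs, the intervals bound how large a difference between the groups as labelled could be. The log2FC of members ranged from -0.18 to 0.16 with standard errors (SE) of 0.096 to 0.165. For all 48, the 95% interval lay within 0.58 on both sides of 0, the threshold of the study for a differentially expressed gene (DEG), with outermost bounds of -0.42 and 0.49. RPS18, one of the reference genes of the study's RT-qPCR, had 131, 152 and 164 CPM in the high and 124, 157 and 195 CPM in the low IMF group, with a log2FC of 0.05 (SE 0.12).

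**Figure D5:**
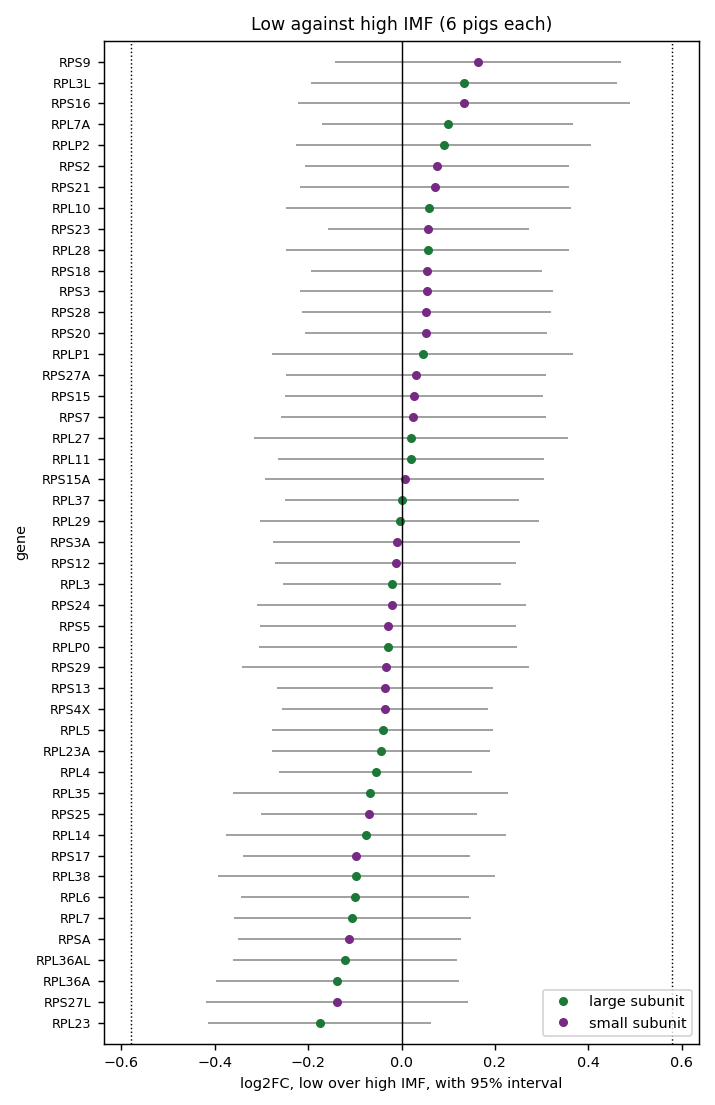
Log2FC of 47 of the 48 tested ribosomal protein genes, low over high IMF (points, 6 pigs a group, coloured by subunit), with 95% intervals (lines) from edgeR. Every interval crosses 0 and stays inside the dotted lines at 0.58 on both sides.

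RPL23 had the smallest p among members, with a log2FC of -0.18 (SE 0.11, edgeR adjusted p = 0.607). Other members with the smallest p among those higher in the high IMF group were RPL36A (-0.14), RPS27L (-0.14), RPL36AL (-0.12) and RPSA (-0.11), the last a small subunit protein also known as the laminin receptor. On the other side stood RPS9, a protein of translational accuracy, whose log2FC was 0.16 (SE 0.14, edgeR adjusted p = 0.715). RPS9 had 137, 160.0 and 172 CPM in the high and 116, 175 and 231 CPM in the low IMF group, so that the low IMF range enclosed the high IMF range. RPL3L (0.13), RPS16 (0.13), RPL7A (0.10) and RPLP2 (0.09) followed, with values none of which passed the test. Large subunit genes had a median log2FC of -0.03, with 9 of 23 higher in the low IMF group, and small subunit genes one of 0.01, with 14 of 25.

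The direction of these small values rested on pigs 7 and 12. Without pig 7, only 2 of 48 members had a log2FC above 0, and without pig 12, 36 had one. The median log2FC of the members was -0.07 and 0.07 in these fits, beside -0.0058 and -0.0039 for all genes. Without pig 12, RPS9 was the 1 member at an unadjusted threshold of 0.05 in edgeR's test, with a log2FC of 0.27, while 9.59% of all genes passed it. Without the 6 pigs whose Y counts opposed their label, 8 of 48 had a log2FC above 0, with a median of -0.05 beside -0.01 for all genes. In that fit 0 members passed an unadjusted p of 0.05 and 4.05% of all genes did. The log2FC also followed GC content, at an r of 0.60 over the 48 members and 0.27 over 11031 genes. Without pig 7 these were 0.28 and 0.25. Of the 12 members lowest in GC, 9 had a log2FC below 0, and of the 12 highest, 10 had one above 0.

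Genes that work beside the ribosomal proteins differed in how closely they followed them. RACK1, a scaffold protein of the small subunit outside the naming rule, had an r of 0.97 with the mean of the members and a log2FC of 0.00 (SE 0.11). FAU, whose product is cleaved into RPS30, did not follow them, with an r of -0.38 and a log2FC of 0.35 (SE 0.19, edgeR adjusted p = 0.518) at only 12.9 CPM. The 14 tested genes of a list of other TOP mRNAs, mostly translation factors, had a median r of 0.65 with the members' mean. Among them EIF3H stood at 0.91, TPT1 at 0.73, EEF2 at 0.64 and PABPC1 at -0.41. The starts of these genes were not examined here. None of the 14 had an unadjusted p of 0.05 or under, and their median log2FC was 0.02.

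The 68 tested mitochondrial ribosomal protein genes, which build the separate ribosome of the mitochondrion, had a median r of 0.54 with the members' mean and of 0.41 among themselves, and 0 of 68 had an unadjusted p of 0.05 or under. The 36 ribosome biogenesis genes, which process ribosomal RNA and assemble the subunits, had a median r of only 0.11 with the members' mean. Of them, 4 had an unadjusted p of 0.05 or under, NOP58, GNL3 and TAF1D being higher in the high IMF group and POLR1A in the low IMF group. That is 4 of 36 beside the 10.4% of all genes, and 0 passed the adjusted threshold.

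Of the 19 tested regulators in the mTORC1 pathway and of TOP mRNAs, 3 had an unadjusted p of 0.05 or under, all higher in the low IMF group, beside 10.4% of all genes in either direction and 5.38% higher in the low IMF group. LARP1, the TOP mRNA binding protein, had 62.2 ± 9.42 CPM (SD, n = 6) among high IMF pigs and 82.8 ± 8.47 CPM (SD, n = 6) among low IMF pigs, with a log2FC of 0.41 (SE 0.11, edgeR adjusted p = 0.367). AKT1S1, an inhibitory partner of mTORC1, had a log2FC of 0.33 (SE 0.13, edgeR adjusted p = 0.441), and TSC2, an inhibitor upstream of it, one of 0.42 (SE 0.17, edgeR adjusted p = 0.441). None passed the adjusted threshold, and the r of LARP1 with the members' mean was -0.32. The regulators had a median r of 0.10 with the members' mean, beside a median of -0.02 over all genes tested.

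Marker genes of muscle fibres and of other cell types the muscle could hold were set beside the members. The summed level of the 9 adipocyte markers counted was 302 to 414 CPM in the high and 167 to 607 CPM in the low IMF group, with PLIN4 making up 70.6% of the mean sum. Of these 9 genes, 7 had a log2FC above 0, that is higher in the low IMF group, against 48.4% of all genes. Their median log2FC was 0.16, and 0 had an unadjusted p of 0.05 or under in edgeR's test. The median r of the adipocyte markers with the members' mean was -0.27, with 0.05 for PLIN4 and -0.31 for ADIPOQ. The 6 muscle fibre markers had a median r of 0.62. The other lists had a median r of 0.19 (macrophage), 0.11 (lymphocyte), -0.03 (endothelium), 0.00 (fibro-adipogenic cells) and -0.10 (red blood cell). Their part in the members' levels was not tested.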

How the data were processed

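Stranded libraries of polyadenylated SM RNA, 1 per pig, were sequenced as read pairs. The authors trimmed reads with Trimmomatic, aligned them to Sscrofa11.1 with HISAT2, assembled known transcripts with StringTie, counted with HTSeq, and deposited raw counts per Ensembl gene and pig. Strand option, annotation release and multi-read handling are not given in the sources used here, so near-identical copies and antisense genes are uncertain.

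Here, genes kept by filterByExpr were scaled by TMM and tested with edgeR's quasi-likelihood test on the whole table (R 4.3.3 and edgeR 4.0.16). The model held only the IMF group, with Benjamini-Hochberg adjustment over 14262 genes. DESeq2 1.42.0 and limma-voom (limma 3.58.1) were alternatives, and the edgeR test was tested on simulated data. Log2 CPM used a prior count of 2. Paralog correlations used 100000 resamples (Python 3.11.15, scipy 1.17.1). All 49 members matched a RefSeq gene by symbol, which gave positions, sequences and coding GC. No protein sequences were used here.

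Members were named by the 5 smallest p in each direction, the 5 highest and 3 lowest levels per coding kilobase, the 5 lowest and 3 highest r with the others, and the paralogs, with RPS18. RPL28 and the extreme pairs were named after their values were seen. A gene and a sequence of this rule are not reported here. The members and gene lists were chosen with earlier results of these data known.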

Additional observations from a re-analysis of the deposited data

Results flagged for a closer look

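In 2 of 58 groups of 6 pigs looked at, 1 pig lay further from the others than Dixon's 95% limit allows, and chance gives about 1 such group in 20. The first was RPL3 in the high IMF group, where pig 6 had 74.1 CPM and the next pig 59.6, a gap of 0.649 of the range. In the same pig, the summed level of the red blood cell markers was 633 CPM against 41.3 to 122 CPM in the others, and that of the lymphocyte markers 27.1 CPM against 6.96 to 14.6 CPM. Their part in the RPL3 value was not tested. The second was the ratio of RPL36AL to RPL36A in the low IMF group, where pig 12 had 0.506 and the next pig 0.433, a gap of 0.628 of the range. Pig 12 was also the pig with the lowest share of counts on ribosomal protein genes.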

How the results depend on the processing

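The count of members at an adjusted p of 0.05 was 0 under every alternative run (other normalizations, filters, dispersion, labelled sex as a covariate, DESeq2, limma-voom, and each pig left out). At an unadjusted p it was 0 in all but 1, with a range of 0 to 1 over the fits that left out a pig. The median pairwise r moved from 0.77 to 0.70 with Spearman's rho, 0.55 with library totals, 0.69 without pigs 7 and 12 and 0.84 without the 6 pigs whose Y counts opposed their label, and ranged from 0.70 to 0.79 with a pig left out. The median log2FC ranged from -0.07 to 0.07 and the difference in share from -0.0429 to 0.0182 percentage points with a pig left out. With a pig left out, the log2FC of 35 of 48 members, none of which passed the adjusted threshold, changed sign. Among the 12 genes followed under every alternative these were RPL3 (-0.072 to 0.063), RPL3L (-0.0045 to 0.21), RPL7A (-0.010 to 0.17), RPLP2 (-0.064 to 0.16), RPS16 (-0.017 to 0.24) and RPS18 (-0.020 to 0.12). Without pig 7, it was -0.0045 for RPL3L, -0.010 for RPL7A, -0.064 for RPLP2, -0.017 for RPS16 and -0.020 for RPS18, and RPL3 had 0.063 without pig 6, 0.0018 without pig 8 and 0.0078 without pig 9. Without the 6 pigs it was 0.055 for RPL36AL, -0.028 for RPS16, -0.022 for RPS18, 0.050 for RPS27L and -0.0042 for RPS9. The cause was not tested. No paired analysis was possible because the labels tie no pig to another. Some pigs shared a slaughter day and libraries shared lanes, and which ones is not given in the sources used here, so these batches were not tested. Depth did not limit the tests, since each tested member had at least 2031 counts in every pig. With 6 pigs a group, the intervals given set what differences these data could show.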
